A study of Homo sapiens with 6 samples.

Results

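The regions described here were bound by JUNB in HaCaT cells, shared no base with any FOSL2 region of the same cells, and lay far from the ends of protein-coding genes. They were chosen from the deposited JUNB list by position alone. A region on an autosome was taken when it met 2 conditions. It had no bp in common with a FOSL2 region, and its summit lay more than 10000 bp from the ends of every protein-coding gene. The ends are the first and last base of a gene in the RefSeq annotation of hg38, so starts inside a gene do not count. Of 39317 autosomal JUNB regions, 4315 met both conditions (11%). Of the same regions, 8515 shared no bp with FOSL2 at any distance (21.7%), so about as many JUNB-only regions lay within 10 kb of a gene end (4200) as beyond it. Among the 26097 JUNB regions beyond 10 kb, 16.5% were JUNB-only. These shares follow from the choice of regions and from the length of each list, and the autosomal FOSL2 list was the longer one, with 73751 regions.

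HaCaT is an established, immortalised line of human skin keratinocytes, and the study addressed enhancer variants of atopic dermatitis. Crosslinked chromatin from untreated cells was precipitated with an antibody to FOSL2 in 3 libraries and with an antibody to JUNB in 3 others, and libraries were made by ChIPmentation, where adapters are inserted by a transposase while the chromatin is still on the beads. The libraries of a factor were represented by 1 list of regions, so the values carry no replicate error, none was tested between conditions, and the read depth behind a region is unknown. Intervals given below are 95% intervals over regions and cover counting error only, since regions of 1 list are not replicates. That these were keratinocytes cannot be checked from lists of bound regions.

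JUNB and FOSL2 both belong to AP-1, a family of basic leucine zipper factors that bind DNA as dimers. A JUN protein can pair with itself or with a FOS protein, whereas FOS proteins such as FOSL2 need a JUN partner to bind. The preferred site of such dimers is TGANTCA, and AP-1 factors are known in keratinocytes for their part in growth, differentiation and the response to stress. As reference, the JUNB-only distal regions are set beside 2 classes of the same JUNB list: 21782 JUNB regions that were equally far from gene ends but overlapped FOSL2, called shared distal regions, and the 4200 JUNB-only regions within 10 kb of a gene end.

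Although every one of these summits was over 10 kb from the outer ends of coding genes, some lay at annotated starts inside a gene, where a shorter transcript begins. The 250 bases before 6 such starts are printed because they include starts with an AP-1 site and starts rich in CpG without one, while other such windows had neither. Each is given 5′ to 3′ on the strand of its gene, from RefSeq (GRCh38.p14), with every match to TGANTCA on either strand in capitals. The JUNB summit lay inside each of these windows. KCNMA1 (the pore-forming subunit of a calcium-activated potassium channel, chr10:77350762-77351011, minus strand), the long non-coding LOC124906088 (inside STK39, chr2:168211200-168211449, plus strand) and BCL2L13 (a BCL2-like protein of mitochondria, chr22:17706531-17706780, plus strand) contain the site. PREX1 (an exchange factor for Rac, chr20:48828000-48828249, minus strand), PIK3CD (the delta catalytic subunit of a phosphoinositide kinase, chr1:9689294-9689543, plus strand) and ZFP1 (a zinc finger protein, chr16:75148274-75148523, plus strand) do not.
KCNMA1: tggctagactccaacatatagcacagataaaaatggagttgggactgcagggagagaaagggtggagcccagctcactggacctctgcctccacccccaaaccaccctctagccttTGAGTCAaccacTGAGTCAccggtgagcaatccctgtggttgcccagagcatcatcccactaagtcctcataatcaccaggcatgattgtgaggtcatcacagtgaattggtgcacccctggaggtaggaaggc
LOC124906088: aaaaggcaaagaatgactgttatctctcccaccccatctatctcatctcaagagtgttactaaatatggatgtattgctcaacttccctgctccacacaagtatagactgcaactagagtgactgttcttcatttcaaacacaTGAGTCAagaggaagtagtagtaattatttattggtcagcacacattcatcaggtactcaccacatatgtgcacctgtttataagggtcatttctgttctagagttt
BCL2L13: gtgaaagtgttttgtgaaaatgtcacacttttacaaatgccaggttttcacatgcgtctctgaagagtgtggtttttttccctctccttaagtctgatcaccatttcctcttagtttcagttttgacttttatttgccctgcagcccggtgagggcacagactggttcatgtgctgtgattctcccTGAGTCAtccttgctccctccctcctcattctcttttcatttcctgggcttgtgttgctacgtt
PREX1: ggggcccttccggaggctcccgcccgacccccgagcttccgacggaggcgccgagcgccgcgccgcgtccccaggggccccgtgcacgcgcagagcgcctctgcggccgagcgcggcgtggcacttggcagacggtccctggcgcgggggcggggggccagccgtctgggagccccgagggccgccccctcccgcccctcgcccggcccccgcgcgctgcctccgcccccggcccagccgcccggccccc
PIK3CD: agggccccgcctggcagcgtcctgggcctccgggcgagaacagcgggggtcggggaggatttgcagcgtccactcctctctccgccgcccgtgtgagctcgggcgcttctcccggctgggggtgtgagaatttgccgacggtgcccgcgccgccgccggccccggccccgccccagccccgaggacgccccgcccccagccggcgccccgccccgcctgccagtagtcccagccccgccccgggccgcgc
ZFP1: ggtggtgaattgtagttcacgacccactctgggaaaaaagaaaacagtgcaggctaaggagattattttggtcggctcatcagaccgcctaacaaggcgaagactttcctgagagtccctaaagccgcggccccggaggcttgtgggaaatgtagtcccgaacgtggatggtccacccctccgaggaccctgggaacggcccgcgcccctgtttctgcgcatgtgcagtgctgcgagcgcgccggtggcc

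In KCNMA1 the JUNB summit stood 115 bases before the start, and the 2 AP-1 sites began 134 and 122 bases before it. In LOC124906088 the summit was 125 bases and the site 107 bases before the start, and in BCL2L13 they were 66 and 64 bases before it. These 3 windows held 1, 0 and 3 CpG dinucleotides. The PREX1, PIK3CD and ZFP1 windows held 39, 33 and 18 CpG, with a GC content of 84.8%, 79.6% and 59.2%, and their summits stood 152, 154 and 105 bases before the start. Windows were chosen for holding a summit, so its place inside them is no finding.

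Over all annotated starts, 115 JUNB-only distal regions (2.67%) had a summit in the 250 bases before one, and they fell in 133 windows. Their median fold enrichment was 3.86. The sequence of the other JUNB-only distal regions was not examined, so the motif shares describe these windows and not the class. Windows of close starts overlap or coincide, so some bases count more than once, and the intervals treat such windows as separate. TGANTCA was present on either strand in 9 of the 133 windows (6.77%, Wilson interval 3.60 to 12.4%), close to the 6.54% of all 33723 autosomal windows. In the 275 windows that held the summit of a shared distal region it was present in 134 (48.7%, 42.9 to 54.6%). In the 1440 windows of the JUNB-only regions near gene ends it was present in 2.29%. The 9 windows belonged to LOC124906088, KCNMA1, BCL2L13, KSR1, LINC02265, LINC02029, LOC100287467, LINC-PINT and LOC105369406. GGGCGG, a site of SP and KLF factors, was commoner in the JUNB-only than in the shared distal windows. It was in 63.2% of the JUNB-only distal windows, 22.2% of the shared distal windows, 74.4% of the windows near gene ends and 42.7% of all windows. CCGGAAG, an ETS site, was in 14.3%, 4.36%, 22.7% and 8.55% in the same order. TGTGGT, a RUNX site, was in 9.77% of the JUNB-only distal windows and 20.7% of the shared distal ones, and GGAATG, a TEAD site, in 14.3% and 18.5%. In all windows these 2 sites were in 10.95% and 11.9%. For TGTGGT the JUNB-only distal share was thus close to that of all windows, and the shared distal share was the higher one. CCAAT, the NFY site, differed little between the distal classes, at 33.8% and 34.9%, as did the cyclic AMP response element TGACGTCA, at 2.26% and 2.55%. Their shares of all windows were 31.8% and 1.66%. TTGCNNCA, a C/EBP site, was in 7.52% and 10.5%, and the CTCF core in 3.01% and 0.727%, against 8.9% and 2.04% of all windows, respectively. The CTCF shares of the distal classes rest on 4 and 2 windows, and their intervals overlapped. The median window held 21 CpG in the JUNB-only distal class and 4 in the shared distal class, against 11 in all windows. The median GC content was 67.6% in the JUNB-only distal windows and 48.8% in the shared distal ones. It was 66% in the windows near gene ends and 58.4% in all windows. Motif shares were not adjusted for this base composition. The motif and CpG contrasts hold against shared distal windows. In the 1758 windows with the summit of any autosomal shared JUNB region, near or far from gene ends, GGGCGG was in 60.1% and TGANTCA in 21.5%, and the median was 19 CpG. The cyclic AMP element is 1 base longer than TGANTCA and cannot match it. A match is a string of letters, not a measured site, and chromosome 8 was not analysed for starts or windows.

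**Figure D1:**
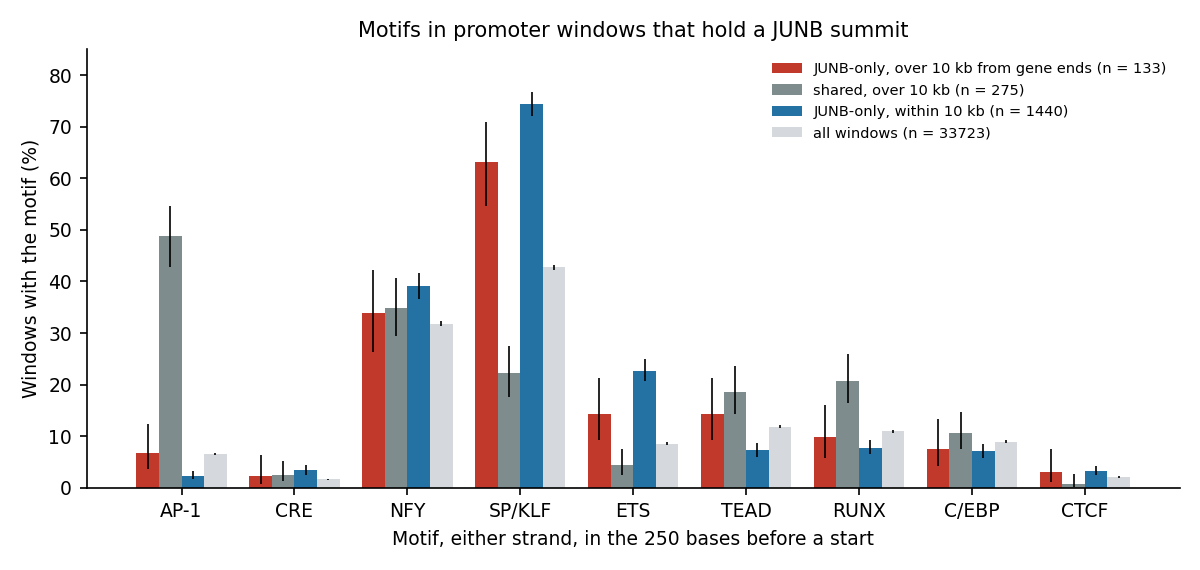
Share of 250-base windows before annotated starts that hold each of 9 motifs on either strand (y axis, percent), for windows with the summit of a JUNB-only distal region (n = 133), a shared distal region (n = 275) or a JUNB-only region near a gene end (n = 1440), and for all windows (n = 33723). Bars are shares and lines are 95% Wilson intervals; the AP-1 bar stands at 48.7% for shared distal regions and at 6.77% for JUNB-only distal ones.

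The JUNB-only distal regions were weak and narrow. Strength is given as the fold enrichment at the summit in the authors' list, the ratio of the pileup of reads to its local background. Its median was 3.32 (95% interval 3.30 to 3.36), with quartiles of 2.83 and 4.10 and a range of 1.78 to 12.2. Shared distal regions had a median of 5.44, with an interquartile range of 4.10 to 7.14 and a maximum of 23.2. JUNB-only regions near gene ends had a median of 3.54, close to that of the distal ones, with an interquartile range of 2.96 to 4.30. The upper quartile of the JUNB-only distal regions was thus about the lower quartile of the shared distal ones. The median width was 275 bp (185 to 457 bp between quartiles, 95 to 2061 bp in all). It was 613 bp for shared distal regions and 403 bp for JUNB-only regions near gene ends. The median −log10 q was 5.78, against 20.7 and 7.79 in the reference classes.

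A tail of the JUNB-only distal regions was as strong as typical shared ones. A fold enrichment of at least 5 was reached by 543 of them (12.6%), by 57.9% of the shared distal regions and by 11.5% of the JUNB-only regions near gene ends. At 8 or more the count was 57 (1.32%), against 15.9% and 1.19%. A −log10 q of at least 10 was reached by 1149 (26.6%), against 76.6% and 36.1%. At the other end, 1299 regions (30.1%) were under 200 bp wide, against 3.29% and 16.5%, and their median fold enrichment was 2.83. The 101 regions of at least 1000 bp (2.34%) had a median fold enrichment of 5.20. In 50 JUNB-only distal regions (1.16%) the −log10 q was under 1.3, so the deposited list held regions that would miss a q of 0.05.

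**Figure D2:**
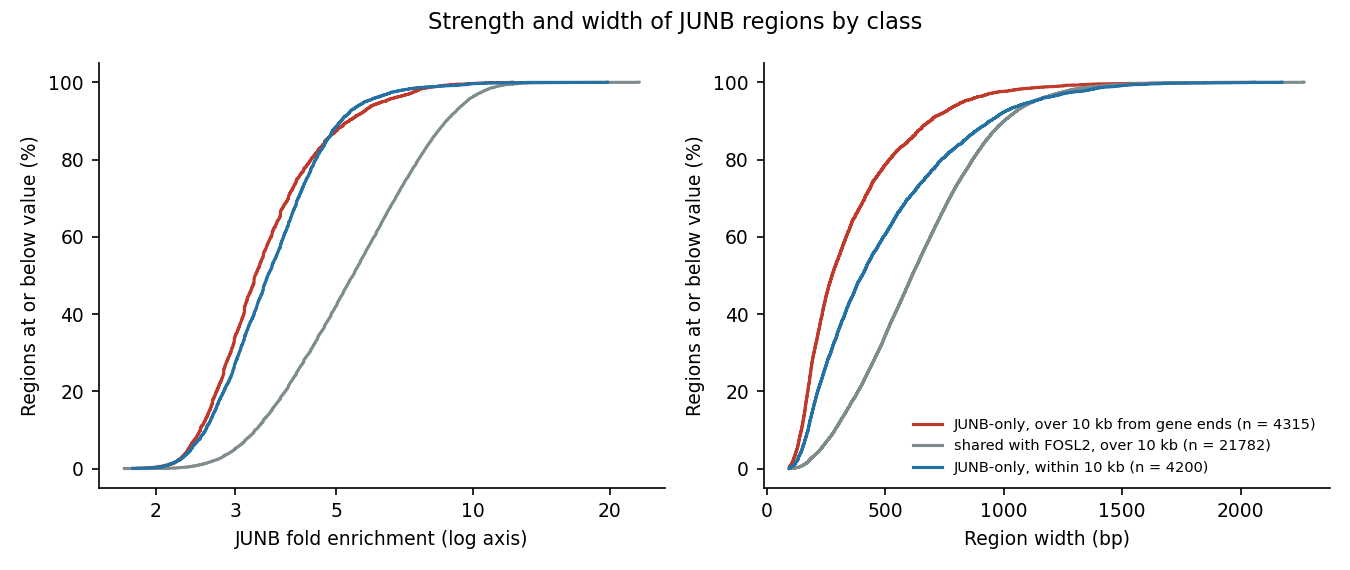
Fold enrichment at the summit (left, log axis) and width in bp (right) of JUNB regions as cumulative shares of regions, for the JUNB-only distal, shared distal and JUNB-only near-gene-end classes. The JUNB-only distal curve lies left of the shared distal one in both panels, with medians of 3.32 and 275 bp against 5.44 and 613 bp for shared distal regions.

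The share of JUNB regions without FOSL2 fell steeply with strength, both far from gene ends and near them. All autosomal JUNB regions were ranked by fold enrichment and split into 10 bins of equal size. Among the regions beyond 10 kb, 57.8% of the weakest bin were JUNB-only. The following bins held 38.9%, 26.5%, 17.9%, 13.3%, 8.42%, 6.36%, 3.39% and 3.47%, and the strongest bin held 1.60%. Within 10 kb of gene ends the same shares ran from 65.7% in the weakest bin to 5.20% in the strongest, and were higher than the distal shares in every bin. Of all JUNB-only distal regions, 31.4% belonged to the weakest bin and 49 (1.14%) to the strongest. The split rests on 1 list per factor, so a FOSL2 signal that the authors' list left out counts here as none. Whether a signal was left out for its strength or by the way 3 libraries became 1 list is not known here.

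**Figure D3:**
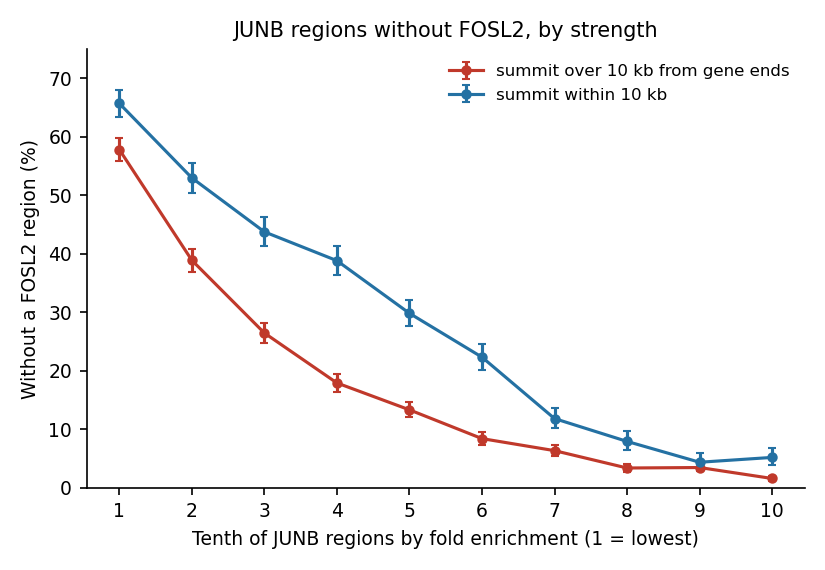
Share of JUNB regions that share no bp with FOSL2 (y axis, percent) in 10 bins of equal size by JUNB fold enrichment (x axis, 1 is the weakest), for regions beyond and within 10 kb of gene ends, with 95% Wilson intervals. The share falls from 57.8% to 1.60% beyond 10 kb and from 65.7% to 5.20% within it.

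The 12 strongest JUNB-only distal regions had fold enrichments of 10.2 to 12.2, and 8 of them lay inside a protein-coding gene. The 2 highest were short and lay close to FOSL2 regions. Fold enrichments of the JUNB and FOSL2 lists come from different antibodies and are not compared. One, chr2:87852984-87853137 inside RGPD2, was 154 bp wide with a fold enrichment of 12.2, and a FOSL2 region with a FOSL2 fold enrichment of 17.7 lay 91 bp away. The other, chr9:65684721-65684876 inside ZNG1E, was 156 bp wide with 12.1, and a FOSL2 region of 15.8 lay 201 bp away. Both genes belong to families with near-identical copies in the genome, and how reads that match several copies were handled is not given in the sources used here, so these values are uncertain.

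The other 10 were 525 to 1322 bp wide, and 5 of the 12 summits lay within 1000 bp of an annotated start, 4 of them starts of coding genes. ZFP1 had a region of 1148 bp with a fold enrichment of 11.2 at chr16:75147769-75148916, and PREX1 one of 1081 bp with 10.7 at chr20:48827839-48828919. The PREX1 region had the highest −log10 p of all JUNB-only distal regions, 174.5. KCNMA1 had one of 888 bp with 10.7 at chr10:77350416-77351303, whose summit was also 4 bp from the end of the antisense KCNMA1-AS3. Without strand, a region there belongs to neither transcript. PIK3CD had one of 1322 bp with 10.6 at chr1:9688444-9689765. STK39, a kinase that regulates ion cotransporters, held the region at the LOC124906088 start, 1107 bp wide with 10.8 at chr2:168210920-168212026. The nearest FOSL2 regions of these 5 lay 8573, 2532, 4509, 9642 and 10452 bp away, respectively for ZFP1, PREX1, KCNMA1, PIK3CD and STK39.

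Others of the 12 lay outside coding genes. One was at chr12:88854131-88854779, 274037 bp from KITLG, the ligand of the KIT receptor that melanocytes depend on, with a fold enrichment of 10.9. One at chr17:83109433-83110638 was 14827 bp from METRNL, a secreted protein, with 10.7. One at chr3:95280706-95281536 was 1149327 bp from NSUN3, an RNA methyltransferase, with 10.2. Another, at chr2:75677239-75677763 inside GCFC2, had 10.5, and its nearest FOSL2 region was 56174 bp away. These distances are to the nearest end of a coding gene, and no link between region and gene was measured.

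The widest region, 2061 bp inside DPH6 on chromosome 15, had a fold enrichment of 5.45. Others of the 5 widest were 1885 bp with TOMM20 as nearest gene (5.89) and 1789 bp inside SLC25A13 (4.95). Another was 1854 bp with DUSP4, a MAP kinase phosphatase, as nearest gene (6.52). None of the 5 widest was among the 12 strongest. A set of strong but narrow regions was looked at after its values were seen. Besides those in RGPD2 and ZNG1E, the strongest under 200 bp were near PARD6G (8.79), beside the pseudogene REXO1L3P on chromosome 8 (7.85 and 7.54), and near PDE4DIP, PGBD2 and SNORD3A (7.38 each, with the same −log10 p of 27.4).

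Most JUNB-only distal regions had a FOSL2 region within 10000 bp. The gap between a JUNB-only distal region and the nearest FOSL2 region, edge to edge, had a median of 7590 bp (7217 to 7890), with quartiles of 2866 and 16347 bp, and ran from 5 to 877735 bp. For JUNB-only regions near gene ends the median was 6653 bp, with quartiles of 2329 and 15051 bp. A FOSL2 region lay within 1000 bp of 483 JUNB-only distal regions (11.2%, 10.3 to 12.2%) and of 13.5% (12.5 to 14.6%) of those near gene ends. Within 10000 bp there was one for 2569 (59.5%) and for 63.0%. Over all autosomal JUNB regions, most of which overlapped FOSL2, 81.0% had one within 1000 bp and 91.6% within 10000 bp. The autosomal FOSL2 list was long, with 73751 regions, and gaps from positions placed without regard to JUNB were not computed. The nearest FOSL2 region was ordinary in strength, with a median fold enrichment of 5.55 against 5.53 for all autosomal FOSL2 regions. For 1901 JUNB-only distal regions (44.1%) that FOSL2 region touched another JUNB region.

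Strength rose slightly with the gap and width was greatest at middle gaps. The 31 regions with a gap of at most 100 bp had a median fold enrichment of 2.75 and a median width of 182 bp. The 241 with 100 to 500 bp had 3.18 and 291 bp, the 211 with 500 to 1000 bp had 3.20 and 306 bp, and the 1126 with 1 to 5 kb had 3.30 and 311 bp. The 960 with 5 to 10 kb had 3.33 and 269 bp, the 1568 with 10 to 50 kb had 3.36 and 256.5 bp, and the 178 beyond 50 kb had 3.45 and 234 bp. The 5 most remote from FOSL2 were 877735, 393170, 352645, 295612 and 263674 bp away. Their nearest genes were LOC124904970 (chromosome 20), WDR72, PLOD2, KCNU1 and LOC107987067 (chromosome 9). Their fold enrichments were 2.98, 3.38, 2.67, 3.30 and 5.5. The first was 155 bp wide, and the last was 131 bp wide with its summit 90 bp from ANKRD20A4-ANKRD20A20P. Whether reads map to 1 place only was not examined, so such large gaps are uncertain.

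**Figure D4:**
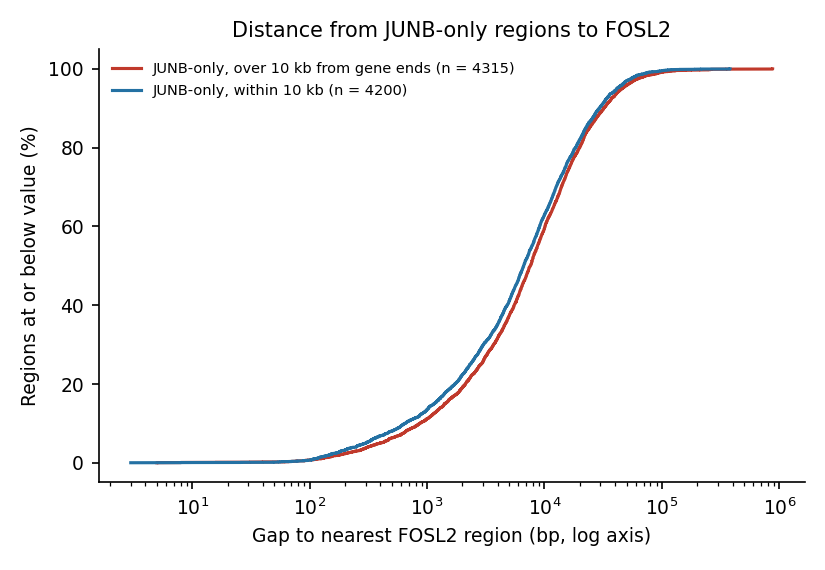
Gap in bp from JUNB-only regions to the nearest FOSL2 region (x axis, log) as cumulative shares of regions (y axis, percent), for regions beyond and within 10 kb of gene ends. The medians are 7590 and 6653 bp, and 11.2% and 13.5% of the regions lie within 1000 bp of FOSL2.

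The nearest other JUNB region lay at a median of 11926 bp. It was itself JUNB-only for 1183 (27.4%), against 16.7% for shared distal regions and 33.9% for JUNB-only regions near gene ends. Another JUNB region within 5000 bp was present for 1239 (28.7%), against 27.7% and 33.0%. Another JUNB-only distal region lay within 5000 bp for 517 (12%) and within 50000 bp for 1399 (32.4%), and the median distance to the nearest one was 109856 bp.

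The share inside genes was alike in the distal classes, whereas the distance to gene ends was not. JUNB-only distal summits lay inside a protein-coding gene in 2147 cases (49.8%, 48.3 to 51.2%), against 48.7% of shared distal and 50.4% of JUNB-only regions near gene ends. A further 627 (14.5%) were in a gene that is not protein-coding, and 1541 (35.7%) in none. Median fold enrichment was 3.30 inside coding genes and 3.35 outside. The median distance to a gene end was 42068 bp, with quartiles of 20914 and 95483 bp and a maximum of 3617134 bp, against 51951 bp for shared distal regions. The share of JUNB regions without FOSL2 declined with that distance, from 47.7% within 1 kb and 21.9% between 1 and 10 kb to 20.1% between 10 and 20 kb, 17.5% to 50 kb, 16.2% to 100 kb, 14.3% to 200 kb and 12.4% to 500 kb. Beyond 500 kb it was 12.6% (113 of 900). The median fold enrichment of JUNB-only distal regions barely moved over these bins, from 3.30 to 3.55.

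Annotated starts were commoner among them than among shared distal regions. On the autosomes other than chromosome 8, 257 of 4151 summits (6.19%, 5.5 to 6.97%) were within 1000 bp of a start, against 13.8% of all autosomal JUNB regions and 668 of 20721 shared distal regions (3.22%, 2.99 to 3.47%). For starts of protein-coding genes the count was 135 (3.25%, 2.75 to 3.84%), against 221 (1.07%, 0.935 to 1.22%). Such regions had a median fold enrichment of 3.63 and width of 434 bp, and the others 3.30 and 267 bp. Of the strongest 1037 JUNB-only distal regions, 87 (8.39%) were at a start, and of the weaker 3114, 170 (5.46%). Among shared distal regions the same split gave 3.17% and 3.24%. Besides the starts above, coding starts with strong regions were PDXK (8.97), which makes active vitamin B6, SRPK2 (7.93), a kinase of splicing factors, TP73 (6.52), a relative of p53 and p63, CEP128 (6.12), MIB1 (6.0), a ubiquitin ligase of Notch ligands, and CHD8 (5.97), a chromatin remodeller. These were named after their values were seen.

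Ends of genes that are not protein-coding lay within 1000 bp of 396 summits (9.18%, 8.35 to 10.1%). Over all autosomal JUNB regions the share was 8.89%, over shared distal regions 5.85% and over JUNB-only regions near gene ends 17.8%. Long non-coding RNA genes accounted for 265 of the 396 (6.14% of JUNB-only distal regions, 4.17% of shared distal ones), pseudogenes for 58 and transcribed pseudogenes for 33. Small RNA genes accounted for 34, and these included some of the strongest of the 396. Genes of spliceosomal small nuclear RNA had 7 (0.162%, 0.0786 to 0.335%, against 0.0367% of shared distal regions and 0.143% of JUNB-only regions near gene ends), with a median fold enrichment of 6.12. The 8 shared distal regions at such genes were stronger, with a median of 8.53 and a maximum of 15.0. Transfer RNA genes had 8 (0.185%, against 0.0275% and 0.333%), with fold enrichments of 2.78 to 4.18. The 6 shared distal ones had 4.83 to 6.44. Genes of miRNA had 11 (0.255%, against 0.207% and 0.762%), and those of small nucleolar RNA 5 (0.116%, against 0.0735% and 0.214%).

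Most of the snRNA regions were at genes of U1, the RNA that pairs with the start of an intron. RNVU1-6, a variant U1 gene, had a fold enrichment of 9.84 with its summit 24 bp from the gene's end. RNVU1-30 had 8.32 at 122 bp, RNVU1-3 had 6.12 at 70 bp, and RNU1-1 had regions of 8.16 and 5.65 lying 97 bp apart. RNU5E-1 had 5.13 at 3 bp, and the annotated snRNA gene LOC124904147 had 3.84 at 111 bp. SNORD3A, a U3 small nucleolar RNA, had 7.38 at 93 bp. RN7SL1, the RNA of the signal recognition particle, had 3.23 at 684 bp, and the Y RNA genes RNY5 and RNY3 had 4.05 at 411 bp and 3.24 at 23 bp. The RN7SL1 and RNY5 regions lay 73 and 273 bp from a FOSL2 region. These small RNA genes have near-identical copies, so their values are uncertain where reads could be split or shared. The 6 strongest regions at non-coding ends were those at LOC124906088, KCNMA1-AS3, RNVU1-6, RNVU1-30 and RNU1-1 and one of 8.37 inside PCCA, 882 bp from LOC105370335. An annotated miRNA hairpin was covered by 3 regions, at MIR3649, MIR4519 and MIR152. For comparison, 13 hairpins were covered by the 21782 shared distal regions and 13 by the 4200 JUNB-only regions near gene ends.

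The nearest protein-coding genes were many and mostly had 1 region each. Of 19126 autosomal coding genes, 2915 (15.2%) were the nearest gene of at least 1 JUNB-only distal region, and 6729 (35.2%) of at least 1 shared distal region. Of the 2915 genes, 2016 had 1 region, 604 had 2 and 174 had 3. Counts reached 8 regions for 2 genes and 7 for 6 others. Of these 8 genes, the 6 named first, with ties broken by the strongest region, were RASEF, a Rab-related protein, PDE4D, a phosphodiesterase of cyclic AMP, TENM4, a teneurin, ABTB3, NTRK2, the receptor of brain-derived neurotrophic factor, and NAV2. RASEF had 8 of 16 far JUNB regions (50%), with a highest fold enrichment of 7.50. PDE4D had 8 of 34 (23.5%), all inside the gene and none above 4.69. TENM4 had 7 of 36, ABTB3 7 of 19, NTRK2 7 of 29 and NAV2 7 of 32, with highest values of 7.25, 6.85, 6.50 and 4.54. The tied PLA2G4A and TLE4 had 7 of 23 and 7 of 29, with highest values of 4.11 and 3.77. Of the 23 genes with 6 or more, 5 lay in a 9.14 Mb stretch of chromosome 9 (RASEF, NTRK2, TLE4, PCSK5 and TLE1), which was noticed after the values were seen. In that stretch, 48 of 169 far JUNB regions were JUNB-only (28.4%), against 20.4% on the whole chromosome. Their median fold enrichment was 2.84 against 5.11 for the shared ones. FOSL2 regions were dense there, at 39.8 per Mb against 25.5 on the whole chromosome.

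For 16 lists of genes, the share that was nearest to a JUNB-only distal region was set beside the 15.2% of all coding genes. Shares were highest for targets of YAP and TEAD, which control growth (9 of 20 genes, 45%), for basal keratinocyte genes (8 of 20, 40%), for genes of AP-1 factors (8 of 21, 38.1%), and for the EGF receptor and MAP kinase pathway (8 of 24, 33.3%). TGF-beta signalling had 6 of 20 (30%), stress and wound genes 5 of 20 (25%), cornified envelope genes 7 of 30 (23.3%) and suprabasal genes 6 of 30 (20%). Type 2 cytokine receptors and mediators had 3 of 19 (15.8%), and other inflammatory genes 4 of 28 (14.3%). Among other cell types, neuronal genes had 5 of 16 (31.2%), fibroblast genes 4 of 18 (22.2%), melanocyte genes 2 of 14 (14.3%), T cell genes 2 of 17 (11.8%) and hepatocyte genes 1 of 18 (5.56%). Housekeeping genes had 3 of 22 (13.6%). The shared distal regions, with 35.2% over all genes, had 80% in the YAP and TEAD list, 60% in the basal list and 62.5% in the neuronal list. Of 347 list entries, 10 were not autosomal coding genes and stand outside these counts. The length of genes and of their flanks was not adjusted for, and nothing particular to a list is read from these shares.

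Among keratinocyte genes, DST, a plakin of hemidesmosomes, was nearest to 4 JUNB-only regions of 24 far JUNB regions, the strongest 4.85. TP63, a key factor of stratified epithelium, had 2 of 15, the strongest 4.39. The JUNB-only share of all far JUNB regions was 16.5%. TJP1, a scaffold of tight junctions, had 7.60. DSC3, a desmosomal cadherin, had 3.17, in a region 630650 bp from the gene end. KLF4, a factor of barrier formation, had 4 of 15 far JUNB regions, of up to 3.09. The cornified envelope genes PPL and IVL and the protease inhibitor gene SPINK5 had 4.92, 4.11 and 3.78. ITGAV, LAMC1 and PTHLH had 5.19, 4.26 and 3.20. DUSP4, DUSP6 and SPRY4, which restrain MAP kinase signalling, had 6.52, 5.39 and 4.31. PTPN14, LATS2 and TGFB2 had 4.94, 4.66 and 4.28, the last with 5 of 18 far JUNB regions.

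Of the AP-1 genes, FOS was nearest to 3 JUNB-only regions of 4 far JUNB regions, the strongest 7.96, at the start of LINC01220 and 12049 bp from FOS. NFE2L2, the factor of the oxidative stress response, had 6.54. FOSL2 itself had 4.80, in a region 424 bp from a FOSL2 region. In the TGF-beta list, TGFBR3 had 8.31 and SMAD3, a signal transducer of that pathway, 4 of 19 far JUNB regions, of up to 7.45. In the inflammatory lists, IL20RB, IL20RA and STAT5B had 3.93, 3.30 and 2.80, and IL1B, NFKBIZ and IL6 had 4.90, 4.57 and 3.97. Some genes of other cell types were also the nearest gene of a region. MITF had 6.86, RAB38 3.88, VIM 6.91, FBLN1 5.97 and COL3A1 4.07. GATA3 had 4.91, ZAP70 3.44, HNF4A 3.15, RBFOX3 4.65 and SYT1 4.24. Nearest did not mean close, as these regions lay 1180141 bp from an end of GATA3 and 257162 bp from one of SYT1. The housekeeping genes TFRC, YWHAZ and ACTB had 3.47, 2.72 and 2.25. Values are the highest fold enrichment among the regions nearest to each gene.

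Chromosomes differed in how much of their distal JUNB binding lacked FOSL2. The share was 16.7% on the median chromosome, lowest on chromosome 4 (9.53%) and chromosome 6 (10.1%) and highest on chromosome 19 (23.7%), with 21.3% on chromosome 17, 20.4% on chromosomes 9 and 16 and 20.3% on chromosome 7. Density was 1.54 regions per Mb on the median chromosome, from 0.458 on chromosome 4 to 2.35 on chromosome 7. The median fold enrichment was lowest on chromosome 9 (2.98) and chromosome 7 (3.13) and highest on chromosome 4 (4.40). Copy number and read depth along the chromosomes of these cells were not available here. The values by chromosome, and those of the chromosome 9 stretch, were not adjusted for them.

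At the edges of the rule, the regions had these values. Just beyond 10 kb, regions near BEST3, EPS8 and PPP1R26 at 10002, 10013 and 10023 bp had fold enrichments of 5.86, 2.81 and 4.92. Just within it, regions near CA4 and EPS8L3 at 9993 and 9975 bp had 2.78 and 3.36. The smallest gaps to FOSL2 were 5, 5 and 6 bp, with HS3ST5, RASA1 and KCNMA1 as nearest genes and values of 2.86, 3.45 and 2.49. The smallest overlaps with FOSL2 that kept a region out were 25, 27 and 29 bp. Those regions had C4BPA, SUCLA2 and TMC1 as nearest genes and values of 2.00, 2.59 and 1.71.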

How the data were processed

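FOSL2 and JUNB binding was measured by ChIP-seq in HaCaT cells, with 3 libraries per factor and 1 deposited list of regions per factor. Per the submitters' processing notes, Bowtie2, SAMtools 1.8, Picard 1.89, MACS2 and deepTools were used with hg38; not given in the sources used here: their order and settings, the control, and the way 3 libraries became 1 list. In the deposited lists the fold enrichment is a ratio, significance is the −log10 p and −log10 q of each region, and the score is 10 times the −log10 p, all as the authors' peak caller wrote them. Summits and widths are the authors' positions in bp.

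From these, overlaps of at least 1 bp, edge-to-edge gaps and distances from summits to gene ends were computed in Python 3.11.15 with pandas 2.3.3, numpy 2.4.6 and scipy 1.17.1, on RefSeq genes of GRCh38.p14. The distance calculation was tested on simulated data. Shares have Wilson intervals and medians order-statistic intervals. Nothing was tested between groups. The JUNB regions, lists and comparisons were chosen with earlier results of these data known. Named regions were the 12 strongest, the 5 widest, the 5 farthest from FOSL2, the 6 strongest at non-coding ends and inside genes, and the 3 strongest genes of each list; some of these are not reported here. Motifs at summits were planned but not searched, as no genome was used here; the search of RefSeq promoter windows was added after seeing the data.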

Additional observations from a re-analysis of the deposited data

How the results depend on the processing

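With 1 list per factor, no library could be left out, depth is unknown, and the values show no replicate error. No paired analysis was possible because each factor had 1 list for its 3 libraries. Of 69 values under 10 alternative settings, 49 moved by less than their interval, or for counts by less than 1.5 times, and 20 moved further. Keeping only JUNB regions with a −log10 q of at least 10 gave 1149 regions, with a median fold enrichment of 4.92, a median width of 581 bp, a median gap to FOSL2 of 6535 bp and 11.1% at a non-coding end. Leaving out JUNB regions under 400 bp gave 1367 regions, with 4.42, 587 bp, 6599 bp and 11.3%, and 51.4% inside a protein-coding gene. Measuring from the ends of all annotated genes gave 2804 regions, a median fold enrichment of 3.30 and 57.7% inside a gene, and no value for non-coding ends, which that setting removes. More than 20000 bp from gene ends, 47.9% were inside a gene. With FOSL2 regions of −log10 q of at least 10 only, the median gap was 9232 bp and 9.40% had FOSL2 within 1000 bp. Without JUNB regions that had FOSL2 within 500 bp, the gap was 8224 bp and the share 5.22%. Leaving out regions at a promoter start, a setting chosen after seeing the data, gave 6.14% at a non-coding end. These shifts follow from which regions each setting keeps.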
